A study of Mus musculus with 6 samples.

Results

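Expression of 9 prostaglandin pathway genes was examined in C2C12 cells, an established line of mouse myoblasts. The genes were Pla2g4a, Ptgs1, Ptgs2, Ptges, Ptges2, Ptges3, Ptgis, Ptger4 and Hpgd, taken by symbol from a list that covers release of the precursor, synthesis, 1 receptor and breakdown. All 9 were among the 23154 genes counted, and 8 of them had enough reads to be tested. The first cells were a stable line with pINDUCER20b-HA-NUR77, from which doxycycline switches on NUR77 with an HA tag (3 libraries). The control was a stable line with pINDUCER20b-GFP, which expresses GFP from the same vector (3 libraries). Both lines received doxycycline at 1 µg/mL for 18 hours, beginning 24 hours after seeding, so the drug itself is shared by the groups. The 3 libraries of a group are numbered replicates of 1 line, and p-values therefore measure the spread between replicates of a line. That spread includes whatever libraries of the same number share across the groups. The labels name 1 stable line per construct and do not say whether it is a clone, and a difference between the lines cannot be told apart from an effect of the construct.

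Prostaglandins are lipid signals made on demand from arachidonic acid. A phospholipase frees arachidonic acid from membranes, a cyclooxygenase (prostaglandin-endoperoxide synthase) turns it into an unstable endoperoxide, and a terminal synthase turns that into prostaglandin E2, prostacyclin or another product, which acts on G protein-coupled receptors before it is oxidised. Of the cyclooxygenases, Ptgs1 is usually the steady form and Ptgs2 the form induced by growth factors and inflammation. In skeletal muscle, prostaglandins made by both are known to affect myoblast proliferation, fusion and regeneration.

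The Nr4a1 transcript did not serve as a check of the labels. It averaged 22.5 ± 3.03 counts per 1000000 counts (CPM) in HA-NUR77, against 20.4 ± 7.43 CPM in GFP (SD, n = 3 each; edgeR adjusted p = 0.698). No label used here states from which species the inserted NUR77 came. Totals ran from 13906096 to 22821446 counts in the libraries labelled HA-NUR77 and from 14626157 to 16797515 in GFP. Myoblast and muscle markers were abundant in both groups, and those of leukocytes, endothelium and adipocytes summed to at most 6.9, 0.931 and 0.131 CPM in HA-NUR77 and at most 4.88, 1.3 and 0.178 CPM in GFP. Ptprc, which defines leukocytes, had 1 read in every library. The summed level of 6 myoblast markers was 6097 to 6885 CPM in HA-NUR77 and 3963 to 5267 CPM in GFP. Of the 6, 2 rose (Cdh15 and Itga7), and Des, the most abundant, did not pass (edgeR adjusted p = 0.0872). With the replicate number as a block, 4 were higher, Des included (edgeR adjusted p = 0.000454), and 2 were lower. That of 10 markers of differentiated muscle was 15441 to 18145 CPM in HA-NUR77 and 9736 to 13785 CPM in GFP. Of the 10, 2 rose (Myh3 and Mb), or 8 with the block. Acta1, the most abundant, passed with the block only (edgeR adjusted p = 0.000179 with it and 0.0583 without). Over all genes tested, 25.6% were called (edgeR, adjusted p under 0.05), and 48.1% with the block. The part of muscle state in the results below was not tested. In cultures measured in bulk, fewer cells of a kind and less RNA per cell cannot be told apart.

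Sequences are shown for the steady and the induced cyclooxygenase, the phospholipase and the catabolic enzyme, the 4 genes that differed by more than 2-fold. The sequences lie at annotated start sites. Each runs 5′ to 3′ in the direction of transcription, from 200 bases before to 30 bases after the start given by RefSeq on GRCm38.p6, and 8 of the 9 genes had an entry there. The windows are chr2:36230226-36230455 on the plus strand for Ptgs1, chr1:150099831-150100060 on the plus strand for Ptgs2, chr1:149961261-149961490 on the minus strand for the outer of the 2 starts of Pla2g4a, and chr8:56294352-56294581 on the plus strand for Hpgd. Capitals mark matches, on either strand, to any of 5 motifs. The TATA box was searched as TATAAA and the E-box as CACGTG. The short form of the cAMP response element was searched as CGTCA and the GC box as GGGCGG. The element that NUR77 binds as a monomer was searched as AAAGGTCA.
Ptgs1: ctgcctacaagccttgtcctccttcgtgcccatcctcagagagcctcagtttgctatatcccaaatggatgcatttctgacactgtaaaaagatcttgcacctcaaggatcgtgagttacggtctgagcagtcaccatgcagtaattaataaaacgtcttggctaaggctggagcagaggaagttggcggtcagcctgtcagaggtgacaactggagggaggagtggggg
Ptgs2: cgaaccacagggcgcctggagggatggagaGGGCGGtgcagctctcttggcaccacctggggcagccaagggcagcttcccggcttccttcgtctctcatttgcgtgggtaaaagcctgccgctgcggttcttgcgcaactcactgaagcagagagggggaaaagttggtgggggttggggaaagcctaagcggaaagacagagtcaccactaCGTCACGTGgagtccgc
Pla2g4a: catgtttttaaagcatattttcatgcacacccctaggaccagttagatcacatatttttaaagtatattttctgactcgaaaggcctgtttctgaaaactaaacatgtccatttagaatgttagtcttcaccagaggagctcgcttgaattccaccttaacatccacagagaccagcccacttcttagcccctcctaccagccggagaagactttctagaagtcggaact
Hpgd: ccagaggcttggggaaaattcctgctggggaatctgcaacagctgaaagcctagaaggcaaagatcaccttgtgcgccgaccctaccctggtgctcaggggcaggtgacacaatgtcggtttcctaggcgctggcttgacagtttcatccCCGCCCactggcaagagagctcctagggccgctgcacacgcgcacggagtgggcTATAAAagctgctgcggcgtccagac
Ptgs2 held a short cAMP response element that shares 2 bases with an E-box, at base 14 after the RefSeq start, and a GC box. Where transcription starts in these cells was not measured, so all positions hold for the annotated starts only. A motif outside a window would not be seen. Hpgd held a TATA box whose first base lay at base 5 after the RefSeq start, which is 29 bases before the start of the gene in GENCODE M21. The Ptgs1 window and the Pla2g4a window shown held none of the 5 motifs. Over all 32851 windows of this length, 10.7% held TATAAA, 6.05% CACGTG, 17.9% CGTCA, 33.1% GGGCGG and 1.19% AAAGGTCA. None of the windows of the 8 genes held AAAGGTCA. A match describes the letters and does not show binding.

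The 2 cyclooxygenase transcripts moved in opposite directions, and the libraries labelled HA-NUR77 contained mostly Ptgs1 where the GFP libraries contained mostly Ptgs2. Over the 9 genes, 3 rose (Ptgs1, Ptgis and Hpgd), 2 fell (Ptgs2 and Pla2g4a), 3 did not pass the test and 1 was not tested. Among all 12509 genes tested, 25.6% were called by the same rule (edgeR, adjusted p under 0.05), 12.4% higher and 13.2% lower, so differences are common in this comparison. The group ranges did not overlap for 7 of the 8 genes tested, against 45.6% of all genes tested. The median log2 fold change of the 8 was 0.17, and that of all genes 0.01.

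**Figure D1:**
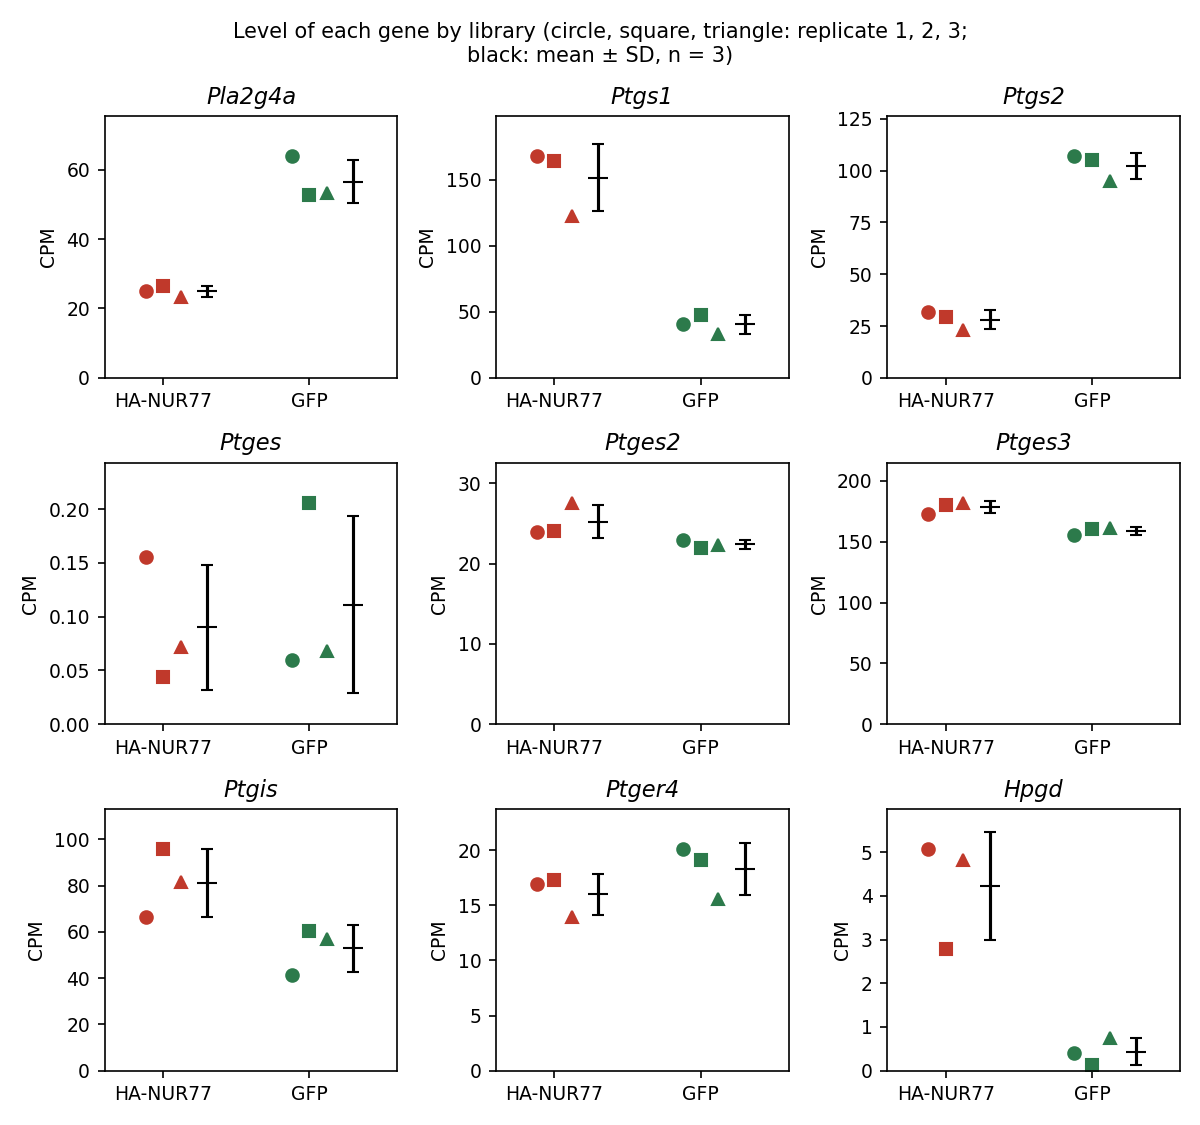
Level of each of the 9 genes in CPM (counts per 1000000 counts, vertical axes from 0), by library, with HA-NUR77 left of GFP. Symbols are replicates, black marks the mean ± SD (n = 3). Ptgs1, Ptgis and Hpgd are higher and Ptgs2 and Pla2g4a lower in all 3 HA-NUR77 libraries than in any GFP library, while Ptges stays at or below 0.206 CPM throughout.

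Pla2g4a encodes the cytosolic phospholipase that frees arachidonic acid when calcium rises, and its transcript fell (ENSMUSG00000056220; GRCm38 chromosome 1, 149829618 to 149961290, minus strand). It had 24.9, 26.4 and 23.4 CPM in HA-NUR77 replicates 1, 2 and 3, from 482, 604 and 326 reads. In GFP replicates 1, 2 and 3 it had 63.9, 52.6 and 53.3 CPM, from 1077, 766 and 788 reads. All 3 HA-NUR77 libraries lay below the lowest GFP library. The log2 fold change was −1.18 (SE 0.10, edgeR adjusted p = 0.000332), a 2.27-fold lower level. Of all genes tested, 345 were called lower by at least as much.

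Ptgs1 encodes the steady cyclooxygenase, and its transcript rose (ENSMUSG00000047250; GRCm38 chromosome 2, 36230426 to 36252272, plus strand). It had 168.0, 164.6 and 122.8 CPM in HA-NUR77 replicates 1, 2 and 3, from 3250, 3769 and 1710 reads. In GFP replicates 1, 2 and 3 it had 40.9, 47.6 and 33.2 CPM, from 689, 693 and 491 reads. The lowest HA-NUR77 library, replicate 3, was still above every GFP library, and replicate 3 was also the lowest of GFP. The log2 fold change was 1.91 (SE 0.16, edgeR adjusted p = 0.000444), or 3.75-fold with a 95% interval of 2.87 to 4.89. Of all genes tested, 73 were called higher with at least this fold change, Ptgs1 included.

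Ptgs2 encodes the inducible cyclooxygenase, whose short-lived mRNA responds to growth factors, cytokines and cAMP. It fell (ENSMUSG00000032487; GRCm38 chromosome 1, 150100031 to 150108227, plus strand). It had 32.0, 29.2 and 23.2 CPM in HA-NUR77 replicates 1, 2 and 3, from 619, 669 and 323 reads. In GFP replicates 1, 2 and 3 it had 106.9, 104.9 and 94.9 CPM, from 1802, 1527 and 1402 reads. The groups were far apart, and GFP replicates differed among themselves by little. The log2 fold change was −1.86 (SE 0.12, edgeR adjusted p = 0.000156), a 3.62-fold lower level, and 124 genes in all were called lower by at least as much.

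Set side by side per kb of exon and per 1000000 counts (RPKM), so that genes of different length can be compared, Ptgs1 stood at 39.1 ± 6.49 RPKM in HA-NUR77 and 10.4 ± 1.85 RPKM in GFP, and Ptgs2 at 6.14 ± 0.983 RPKM in HA-NUR77 and 22.3 ± 1.4 RPKM in GFP (SD, n = 3 each). Ptgs2 made up 13.9%, 13.1% and 13.8% of cyclooxygenase reads per kb in HA-NUR77 replicates 1, 2 and 3. Its share was 68.9%, 65.1% and 70.8% in GFP replicates 1, 2 and 3. This share varied by only 0.449 (SD, percentage points) in HA-NUR77 and 2.87 in GFP, and it differed by −54.7 percentage points. The exact two-sided permutation p was 0.1, the smallest that 3 against 3 libraries allow. The sum of both transcripts was 50.2, 48.8 and 36.7 RPKM in HA-NUR77 and 33.9, 35.2 and 29.3 RPKM in GFP, a difference of 12.5 RPKM (exact two-sided permutation p = 0.1). Every HA-NUR77 library was above every GFP library in this sum, though HA-NUR77 replicate 3 and GFP replicate 2 were close.

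**Figure D2:**
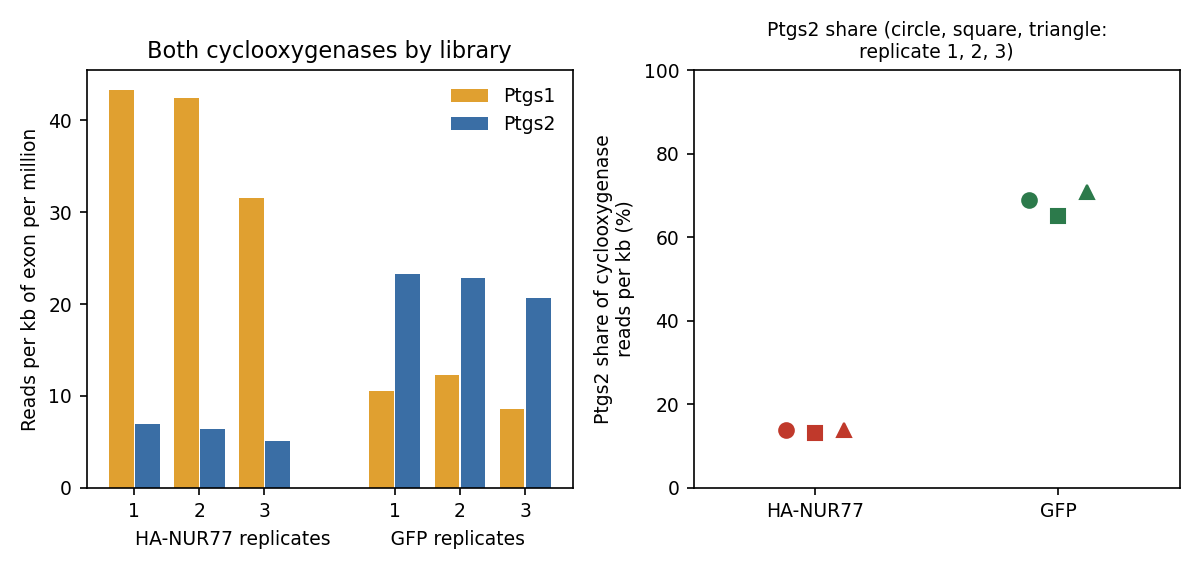
Left, RPKM (reads per kb of exon per 1000000 counts) of Ptgs1 and Ptgs2 in each library, HA-NUR77 replicates before GFP replicates. Right, the share of cyclooxygenase reads per kb that belongs to Ptgs2, in percent, with HA-NUR77 between 13.1% and 13.9% and GFP between 65.1% and 70.8%.

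Ptgs2 and Pla2g4a, the enzymes that act in sequence, are neighbours in the genome. They are transcribed away from each other on chromosome 1, their 5′ ends are 138740 bases apart, and none of the 3 genes annotated between them codes for a protein. One of these, Ptgs2os, a noncoding transcript on the opposite strand, begins 67 bases upstream of Ptgs2. It had 6, 5 and 4 reads in HA-NUR77 and 21, 10 and 9 reads in GFP, too few to test, and was singled out after its values were seen. Its summed reads, scaled by depth, gave a ratio of HA-NUR77 over GFP of 0.311, and those of Ptgs2 0.282.

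Of the terminal synthases, Ptgis, which makes prostacyclin, rose (ENSMUSG00000017969; GRCm38 chromosome 2, 167191805 to 167240604, minus strand). It had 66.4, 95.8 and 81.5 CPM in HA-NUR77 replicates 1, 2 and 3, from 1285, 2193 and 1135 reads. In GFP replicates 1, 2 and 3 it had 41.2, 60.4 and 56.7 CPM, from 695, 880 and 838 reads. The groups came close, with HA-NUR77 replicate 1 just above GFP replicate 2, and replicate 2 was the highest of each group. The log2 fold change was 0.62 (SE 0.17, edgeR adjusted p = 0.0368), or 1.54-fold with a 95% interval of 1.16 to 2.04. Leaving out a single library ended this call in 4 of 6 cases, with edgeR adjusted p values of 0.0871 and 0.0744 without HA-NUR77 replicates 2 and 3, in that order, and 0.102 and 0.056 without GFP replicates 1 and 3. It also ended with no low-count filter (0.0647). Over all 17 alternatives the adjusted p ran from 6.21e-06, with the replicate number as a block, to 0.102. Over 1004 bases of its locus, introns included, the noncoding gene 1110018N20Rik lies on the opposite strand, with 6 to 26 reads per library. The strand setting of the counting is not given, so reads of the 2 cannot be told apart where their exons overlap. Overlap of exons was not measured.

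The 3 enzymes named for prostaglandin E2 synthesis showed no call. Ptges encodes the inducible microsomal synthase that works with Ptgs2. It had 3, 1 and 1 reads in HA-NUR77 and 1, 3 and 1 reads in GFP (ENSMUSG00000050737; chromosome 2, 30889471 to 30929863), too few to test. The depth-scaled ratio was 0.829, with a 95% interval of 0.191 to 3.6, so a change within that interval was not detectable at this depth. Ptges2 encodes a membrane-associated protein with synthase activity in vitro (ENSMUSG00000026820; chromosome 2, 32395896 to 32405772). It had 23.9, 24.1 and 27.6 CPM in HA-NUR77 and 23.0, 21.9 and 22.3 CPM in GFP, a log2 fold change of 0.17 (SE 0.09, 95% interval −0.03 to 0.36, edgeR adjusted p = 0.184). The separation of its groups was small, with HA-NUR77 replicate 1 close to GFP replicate 1. Ptges3 encodes p23, a co-chaperone of HSP90 also described as a cytosolic synthase (ENSMUSG00000071072; chromosome 10, 128058954 to 128077272). It had 173.2, 180.2 and 182.2 CPM in HA-NUR77 and 155.2, 160.8 and 161.3 CPM in GFP. The groups did not overlap, yet its log2 fold change of 0.17 (SE 0.06, 95% interval 0.02 to 0.31) had an edgeR adjusted p of 0.0815. With the replicate number as a block the adjusted p was 0.0193, in a fit that called 48.1% of all genes, 23.5% higher and 24.6% lower. That fit called 4 of the 8 higher and 2 lower. Ptges3 passed in 1 of the 17 alternatives, and with the block plus length and GC offsets its adjusted p was 0.0946. Reads of Ptges3 can be shared with processed pseudogenes, and its value is uncertain to that extent.

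The receptor Ptger4 (EP4), which couples prostaglandin E2 to cAMP, did not pass the test (ENSMUSG00000039942; chromosome 15, 5206661 to 5244187, minus strand). It had 16.9, 17.3 and 13.9 CPM in HA-NUR77, from 326, 397 and 194 reads. In GFP it had 20.1, 19.1 and 15.6 CPM, from 339, 278 and 230 reads. The groups overlapped, and replicate 3 was the lowest of each. The log2 fold change was −0.18 (SE 0.13, 95% interval −0.48 to 0.12, edgeR adjusted p = 0.323). The span of Ttc33, introns included, overlaps 11676 bases of the locus on the opposite strand, with 687 to 1120 reads per library. Overlap of exons was not measured and the strand setting is not given, so the level of Ptger4 is uncertain to an unknown extent.

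Hpgd encodes hydroxyprostaglandin dehydrogenase, which starts the breakdown of prostaglandin E2, and its transcript rose (ENSMUSG00000031613; GRCm38 chromosome 8, 56294585 to 56321043, plus strand). It had 98, 64 and 67 reads in HA-NUR77 replicates 1, 2 and 3, or 5.07, 2.79 and 4.81 CPM. In GFP replicates 1, 2 and 3 it had 7, 2 and 11 reads, or 0.415, 0.137 and 0.744 CPM. The gene was near the limit of detection in GFP and at a low level in HA-NUR77, and it passed the low-count filter through the HA-NUR77 libraries. A gene with so few GFP reads had to be higher in HA-NUR77 to be tested at all, which limits what its call shows. The log2 fold change was 3.25 (SE 0.46, edgeR adjusted p = 0.00336), and 3.84 without GFP replicate 3, whose 11 reads were the most in GFP. The depth-scaled ratio of summed reads was 9.49, with a 95% interval of 6 to 15.8 for counting error only. The log2 ratio of Ptges to Hpgd per kb was −6.25, −7.22 and −7.29 in HA-NUR77 and −4.03, −0.64 and −4.68 in GFP (exact two-sided permutation p = 0.1). That ratio rests on 1 to 3 reads of Ptges per library, and the difference of means was −3.8, or −2.57 without GFP replicate 2.

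Ordered by mean RPKM, the levels in HA-NUR77 were Ptges3 80.5, Ptgs1 39.1, Ptgis 31.6, Ptgs2 6.14, Ptges2 4.98, Pla2g4a 3.9, Hpgd 2.51, Ptger4 2.41 and Ptges 0.0229. In that order the ranges of Ptgs1 and Ptgis, of Ptgs2 and Ptges2, and of Hpgd and Ptger4 overlapped. In GFP the order was Ptges3 71.8, Ptgs2 22.3, Ptgis 20.6, Ptgs1 10.4, Pla2g4a 8.86, Ptges2 4.43, Ptger4 2.75, Hpgd 0.257 and Ptges 0.0282. There the ranges of Ptgs2 and Ptgis, and of Ptgs1 and Pla2g4a, overlapped. The cyclooxygenases traded places in this order around Ptgis, and Ptges was last in both groups.

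**Figure D3:**
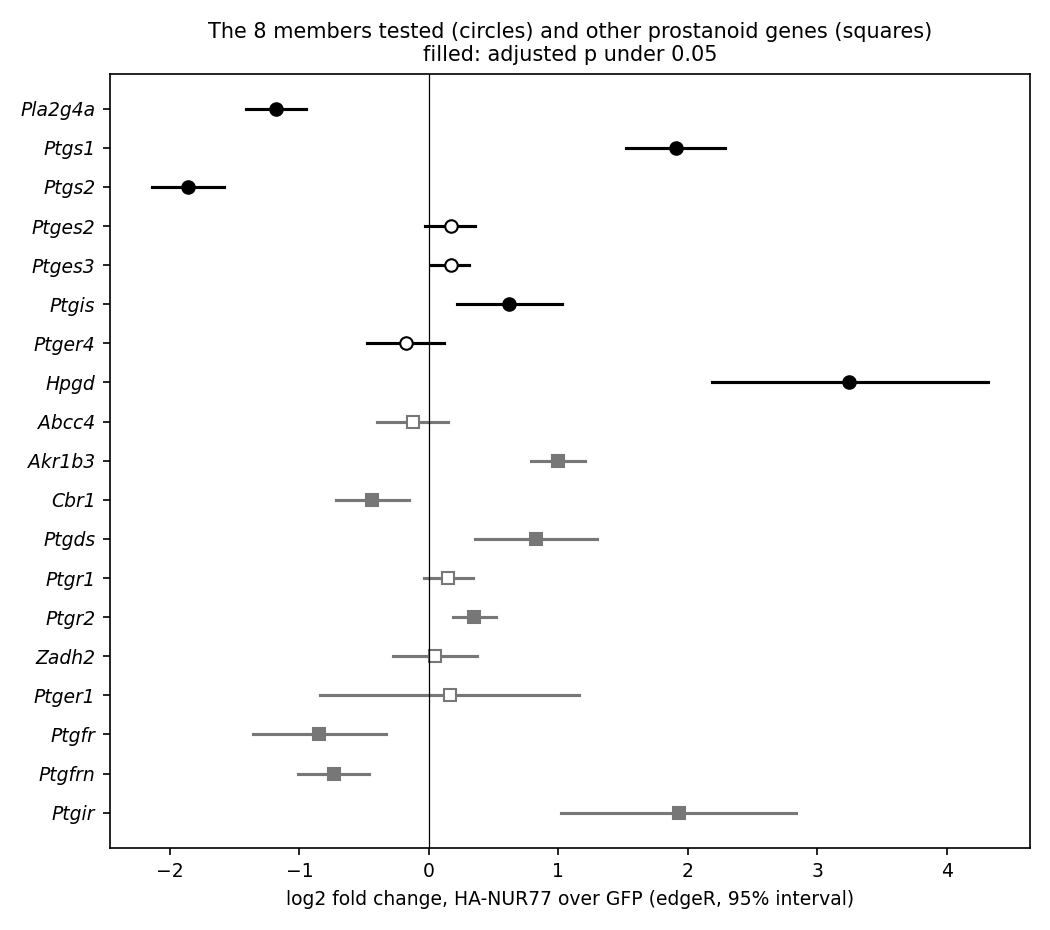
Log2 fold change of HA-NUR77 over GFP (horizontal axis) with its 95% interval, for the 8 genes tested (black circles) and the other prostanoid genes tested (grey squares). Filled symbols have an edgeR adjusted p under 0.05; Ptgs1 at 1.91 and Ptgs2 at −1.86 lie on opposite sides of 0.

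Among 12 other enzymes and carriers of prostanoids, 7 were tested, of which 3 rose, 1 fell and 3 did not pass. Their median log2 fold change was 0.15, and the share called over all genes tested was 25.6%. Akr1b3, an aldose reductase with prostaglandin F synthase activity, stood at 239.9 ± 1 CPM in HA-NUR77 and 119.8 ± 13.7 CPM in GFP (SD, n = 3 each), a 2.00-fold higher level (edgeR adjusted p = 0.000448). Ptgr2, a reductase of oxidised prostaglandins downstream of Hpgd, rose by a log2 of 0.35 (SE 0.07, adjusted p = 0.0124). Ptgds, the lipocalin-type prostaglandin D synthase, rose from a low level, with 3.43 ± 0.563 CPM in HA-NUR77 and 1.93 ± 0.205 CPM in GFP (adjusted p = 0.0225). Cbr1, a carbonyl reductase that can turn prostaglandin E2 into the F2 form, was lower (log2 fold change −0.44, SE 0.12, adjusted p = 0.0376). The call of Cbr1 was lost without any 1 of the 6 libraries and with counts thinned to the smallest library. That of Ptgds was lost on leaving out any 1 of 4 (HA-NUR77 replicates 2 and 3, GFP replicates 1 and 2). Hpgds and Akr1c18 had no read in any library.

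Of 9 other genes for prostanoid receptors and their partners, 4 had enough reads to test, of which 1 rose and 2 fell (median log2 fold change −0.29). The share called over all genes tested was 25.6%. Ptgir, the receptor of prostacyclin, rose. It had 34, 34 and 13 reads in HA-NUR77 and 8, 6 and 3 reads in GFP. By edgeR this was a log2 difference of 1.93 with an SE of 0.39 (adjusted p = 0.0125). Ptgir passed the low-count filter through the HA-NUR77 libraries, so it had to be higher there to be tested. Ptgfr, the receptor of prostaglandin F2, fell, with 35, 35 and 34 reads in HA-NUR77 and 52, 55 and 50 reads in GFP. Its log2 fold change was −0.85 (SE 0.22, edgeR adjusted p = 0.0283). That call was lost on leaving out HA-NUR77 replicate 1 or 2, or any 1 GFP library, which left 1 gene of this list lower. Ptgir had too few reads to be tested under a filter of at least 1 CPM in 3 libraries. Ptgfrn, a membrane protein that associates with that receptor and inhibits ligand binding, was by far the most abundant of this list. It stood at 584.8 ± 44.2 CPM in HA-NUR77 and 971.9 ± 139.2 CPM in GFP, a 1.66-fold lower level (edgeR adjusted p = 0.00564). Ptger1 did not pass (adjusted p = 0.802), and Ptger2, another cAMP-coupled receptor of prostaglandin E2, had no read in any library.

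For arachidonate release and reacylation, and for the lipoxygenase branch beside the cyclooxygenases, 26 genes were in the tables. Of these 14 were tested, 2 rose, 2 fell and 10 did not pass (median log2 fold change 0.09), beside 25.6% called over all genes. Mgll, monoacylglycerol lipase, which supplies arachidonate from an endocannabinoid in some tissues, fell. It stood at 7.22 ± 0.793 CPM in HA-NUR77 and 46.8 ± 2.77 CPM in GFP (SD, n = 3 each), a 6.5-fold lower level (edgeR adjusted p = 4.11e-05). Pla2g15, the lysosomal phospholipase, was lower by less (log2 fold change −0.41, adjusted p = 0.0256). Alox5, which opens the leukotriene branch, stood at 314.1 ± 5.86 CPM in HA-NUR77 and 223.5 ± 40.5 CPM in GFP (1.41-fold higher, edgeR adjusted p = 0.0305). Alox12 rose from few reads, 16, 21 and 10 in HA-NUR77 and 2, 5 and 4 in GFP (adjusted p = 0.0189), and it too was tested only through its HA-NUR77 libraries. The calls of Pla2g15, Alox5 and Alox12 each depended on single libraries. Pla2g15 lost its call without any 1 HA-NUR77 library or GFP replicate 1, and Alox5 without any 1 HA-NUR77 library. Alox12 lost it on leaving out HA-NUR77 replicate 1 or 2, or the first GFP library. It was also lost with counts thinned to the smallest library and under a filter of at least 1 CPM in 3 libraries. Without 1 library, 0 to 3 genes were higher and 1 to 3 lower. With the replicate block 5 were higher and 3 lower, in a fit that called 48.1% of all genes.

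Genes that induce Ptgs2 or control its mRNA were counted beside the same background of 25.6%, or 48.1% with the replicate block. Of 16 tested, 1 rose, 2 fell and 13 did not pass, with a median log2 fold change of −0.16. Zfp36l1, which binds AU-rich elements and promotes mRNA decay, stood at 101.6 ± 2.39 CPM in HA-NUR77 and 155.2 ± 3.59 CPM in GFP (SD, n = 3 each; edgeR adjusted p = 0.000692). Tia1, an RNA-binding protein that represses translation of Ptgs2 mRNA, also fell (log2 fold change −0.46, SE 0.11, adjusted p = 0.0183). Jun, an AP-1 subunit, rose (0.41, SE 0.12, adjusted p = 0.0405), and lost its call without any 1 HA-NUR77 library or GFP replicate 1 or 3. Tia1 lost its call without GFP replicate 1 (which left 1 gene of the list lower) and under the length and GC offsets. The cytokines Il1a, Il1b, Tnf and Il6 had 9 reads or fewer in every library. With the replicate block 7 genes of this list were lower and 1 was higher, and DESeq2 called 4 lower.

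Genes of the cAMP pathway, through which EP4 acts, were also counted, beside the 25.6% called over all genes (48.1% with the replicate block). Of 19 tested, 0 rose and 2 fell by edgeR, the same counts as at an unadjusted p under 0.05, and the median log2 fold change was −0.06. The 2 were Fosb (log2 fold change −0.86, SE 0.24, adjusted p = 0.0372) and Creb1, the cAMP-responsive transcription factor (−0.51, SE 0.13, adjusted p = 0.0257). Fosb lost its call in 10 of the 17 alternatives, among them DESeq2 and each fit without 1 library. Creb1 lost it on leaving out any 1 of 4 libraries (HA-NUR77 replicates 1 and 2, GFP replicates 1 and 3). With the replicate block 2 genes were higher and 4 lower. By DESeq2 and limma 0 rose, and under the length and GC offsets 1 rose and 0 fell.

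By root mean square difference of log2 CPM over the 6 libraries, each taken relative to the GFP mean, the genes most like Ptgs1 were Ppp2r2b (0.142), H2-Q4 (0.152) and Tmc7 (0.155), out of 10108 candidates. Those most like Ptgs2 were all collagen genes, Col11a1 (0.104), Col8a1 (0.123) and Col12a1 (0.127). Their log2 fold changes were −2.05, −1.78 and −1.73, against −1.86 for Ptgs2. H2-Q4 belongs to a family of near-identical genes, and its counts are uncertain.

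The calls of Pla2g4a, Ptgs1, Ptgs2 and Hpgd held under each of the 17 alternatives, and that of Ptgis under 12. Across these the log2 fold change ran from 1.78 to 2.04 for Ptgs1, from −1.96 to −1.74 for Ptgs2, from −1.23 to −1.09 for Pla2g4a and from 2.86 to 3.84 for Hpgd, with the highest edgeR, DESeq2 or limma adjusted p at 0.0222, for Hpgd without GFP replicate 1.

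**Figure D4:**
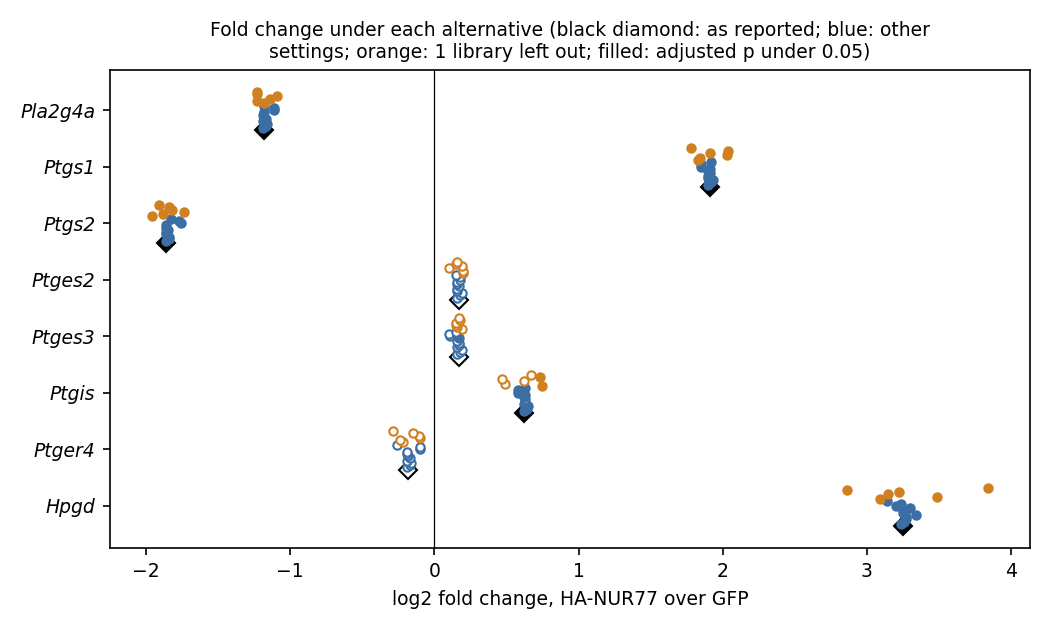
Log2 fold change of HA-NUR77 over GFP (horizontal axis) of the 8 genes tested as reported (black diamonds), under other settings (blue) and without 1 library (orange). Filled symbols have an adjusted p under 0.05. No gene crosses 0, and open symbols appear for Ptgis, Ptges2, Ptges3 and Ptger4.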

How the data were processed

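For each library the authors deposited a table of raw read counts by Ensembl ID, with no scaling. Per the labels' protocols, stranded poly(A) libraries were made by a dUTP method from 1000 ng of RNA with 12 PCR cycles. Per the submitters' processing notes, TopHat2 2.1, HTSeq and DESeq2 were named and the build was mm10; no source used here gives the annotation release or the strand setting. Symbols, positions and exon lengths came from GENCODE M21 (GRCm38, the assembly of mm10), which named 22888 of 23154 IDs.

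The 9 genes and all lists were chosen with earlier results of these data known. Groups were compared with edgeR 4.0.16 in R 4.3.3 by its quasi-likelihood test (TMM, robust, group only) on the 12509 genes kept by filterByExpr (minimum count 10), with Benjamini-Hochberg adjustment over all of them and a threshold of 0.05. CPM values are scaled by the total of tested genes and the TMM factor, and RPKM divides these by exon length in kb. Depth-scaled ratios divide summed reads by summed totals of tested genes, with an exact binomial 95% interval that covers counting error only. The rule for other lists named up to 4 called genes each with the smallest adjusted p, and all where 5 or fewer changed. Alternatives were other scaling factors, filters, DESeq2 1.42.0, limma 3.58.1 (voom), length and GC offsets, thinned counts, a replicate block and leaving out each library. The fits were tested on simulated data. Those data had fewer changed genes than were called here and no effect shared by same-numbered libraries. They therefore do not show how the fit with a replicate block behaves under such an effect.

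Deviations of same-numbered libraries from their group means correlated at 0.25, 0.55 and 0.47 over genes for numbers 1, 2 and 3, each above 0.1. The pairing thus comes from the data, not from a label, and the blocked fit, which leaves 2 residual degrees of freedom instead of 4, is given where it changes a call among the 9 genes or the count of calls in a list. Libraries of a group differed beyond sampling noise (chi-square per degree of freedom of at least 10.9).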

Additional observations from a re-analysis of the deposited data

How the results depend on the processing

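The 3 higher and 2 lower calls among the 9 genes became 2 or 3 higher and 2 lower without 1 library. With the replicate block, Ptges3 joined them (adjusted p = 0.0193), but not with the block plus length and GC offsets (0.0946), and neither fit changed another call among the 9. Over all genes, 1549 were higher and 1655 lower. With the block these counts were 2942 and 3071, and with the block plus length and GC offsets 3248 and 2690. Without 1 library they ran from 642 to 1489 higher and from 850 to 1572 lower. Over the 5 other pathway lists together, 7 of 60 genes tested were higher and 9 lower, where 25.6% of all genes tested were called. With the block, which called 48.1% of all genes, there were 12 and 17. The block plus the offsets gave 16 and 14, and leaving out 1 library 4 to 7 and 3 to 7. Leaving out a library tests with fewer samples, and the cause of the other moves was not tested. The Ptgs2 share differed by −53.4 to −56.2 percentage points without 1 library and by −56.1 with coding length or no length scaling. Paired by number, its exact sign-flip p was 0.25, the smallest that 3 pairs allow. Thinning left no Ptges read in a library, so the Ptges to Hpgd ratio has no value there. Depth limits Ptges, Hpgd in GFP, and the receptors with few reads.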

Other observations

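The thromboxane branch was close to the limit of detection. Tbxas1, thromboxane synthase, had 2, 5 and 0 reads in HA-NUR77 and 0, 0 and 1 reads in GFP. Tbxa2r, the thromboxane receptor, had 11, 12 and 4 reads in HA-NUR77 and 3, 1 and 2 reads in GFP, a depth-scaled ratio of 3.73 (95% interval 1.51 to 11, counting error only). Fam213b, a prostaglandin F synthase also named Prxl2b, had 4, 1 and 1 reads in HA-NUR77 and 7, 5 and 6 reads in GFP, a ratio of 0.276 (0.0898 to 0.727). The importer Slco2a1 had 4, 0 and 0 reads in HA-NUR77 and 2, 2 and 1 in GFP. None of these 4 genes passed the low-count filter, and they were singled out after their values were seen.

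Among markers of fibroblasts and mesenchymal progenitors, 3 rose and 1 fell of 5 tested, against 25.6% called over all genes tested. Their summed level was 664.4 to 814.1 CPM in HA-NUR77 and 498.6 to 542.3 CPM in GFP. Ly6a, a surface antigen of progenitors, rose (log2 fold change 1.21, SE 0.13, edgeR adjusted p = 0.00133), and Pdgfra, the alpha receptor of platelet-derived growth factor, fell (−0.98, SE 0.10, adjusted p = 0.00085). Dcn, the most abundant, did not pass (adjusted p = 0.616). Of 8 leukocyte markers, 2 were tested and 1, Csf1r, was higher, with 36, 29 and 13 reads in HA-NUR77 and 2, 10 and 7 reads in GFP (adjusted p = 0.0443), and it passed the low-count filter through the HA-NUR77 libraries. Cd14, the most abundant of these, averaged 3.01 ± 0.787 CPM in HA-NUR77 and 2.31 ± 0.616 CPM in GFP (SD, n = 3 each). Tek was the only endothelial marker tested (adjusted p = 0.831), and 4 of 5 adipocyte markers had no read.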
